A study of Mus musculus with 4 samples.

Results

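Interferon-stimulated genes other than chemokines were examined in mouse skin treated with MC903 or with its vehicle. The members were 35 genes chosen by name, with earlier results of these data known, so the list is not independent of them. A gene entered through the probe set that the array annotation gives to it alone, taking the one with the highest mean over the arrays. By this rule 33 of the 35 were measured, among 18193 genes in all. Isg15 shares its probe set with another gene symbol, no probe set was named for Ifi44, and signals of both are not analysed here.

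All mice were wild type female BALB/c, and the labels give no age. Both groups had been sensitised by putting ovalbumin, an egg-white protein, together with MC903 on the ear skin and had then been fed ovalbumin, so the Control mice had met MC903 too. After that feeding the skin received MC903 (calcipotriol, a vitamin D analogue that inflames skin) or ethanol alone (Control), ovalbumin was fed again, and RNA of the treated skin was hybridised to 3′ expression arrays, 2 per group. Whether the 2 samples of a group came from separate animals is not said, so each p-value reflects the spread among these 4 samples alone, part of which may be technical. For each gene that spread is borrowed in part from all genes. The deposited signals had been scaled to a mean of 500 per array after trimming 2% at each end. Signals of bacterial TrpnX control probe sets, at most 24, are the guide to background. Keratinocyte markers, 8 of 8 measured, were above that level on all arrays.

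Interferons bind receptors on the cell surface and act through Janus kinases and STAT proteins. Type I interferons, such as interferon beta, act through a complex with STAT2 and IRF9 in it that binds the interferon-stimulated response element (ISRE) before genes of antiviral defence. Interferon gamma, made mainly by T and NK cells, acts on the gamma-activated site (GAS), and it strongly induces GTPases that attack the vacuoles of intracellular microbes. Most of these genes answer to both kinds of interferon to some degree, and keratinocytes, fibroblasts and leukocytes of the skin can all respond.

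MC903-treated skin had more transcript of most of these genes. Of the 33 measured, 31 had differences above 0, against 45.7% of all genes, and the count was 32 when arrays were centred on their medians, where Cmpk2 turned from -0.07 to 0.02. Differences are MC903 minus Control means of log2(signal + 16), a scale that understates those of dim genes. Their median was 1.01, against -0.04 over all genes, and the medians of MC903 array 1 and 2, each set against the mean of both Control arrays, were 1.05 and 1.03. In 30 members both MC903 signals lay above both Control signals, and in 1, Ifit2, below both. Over all genes that separation was found in 21.6% upward and 28.2% downward. For 11 members the difference was at least 2-fold whichever MC903 array was paired with whichever Control array (4 pairings), against 1.16% of all genes, and 0 members were that much lower, against 0.813%. The plot of signals by array shows how few members had overlapping groups.

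**Figure D1:**
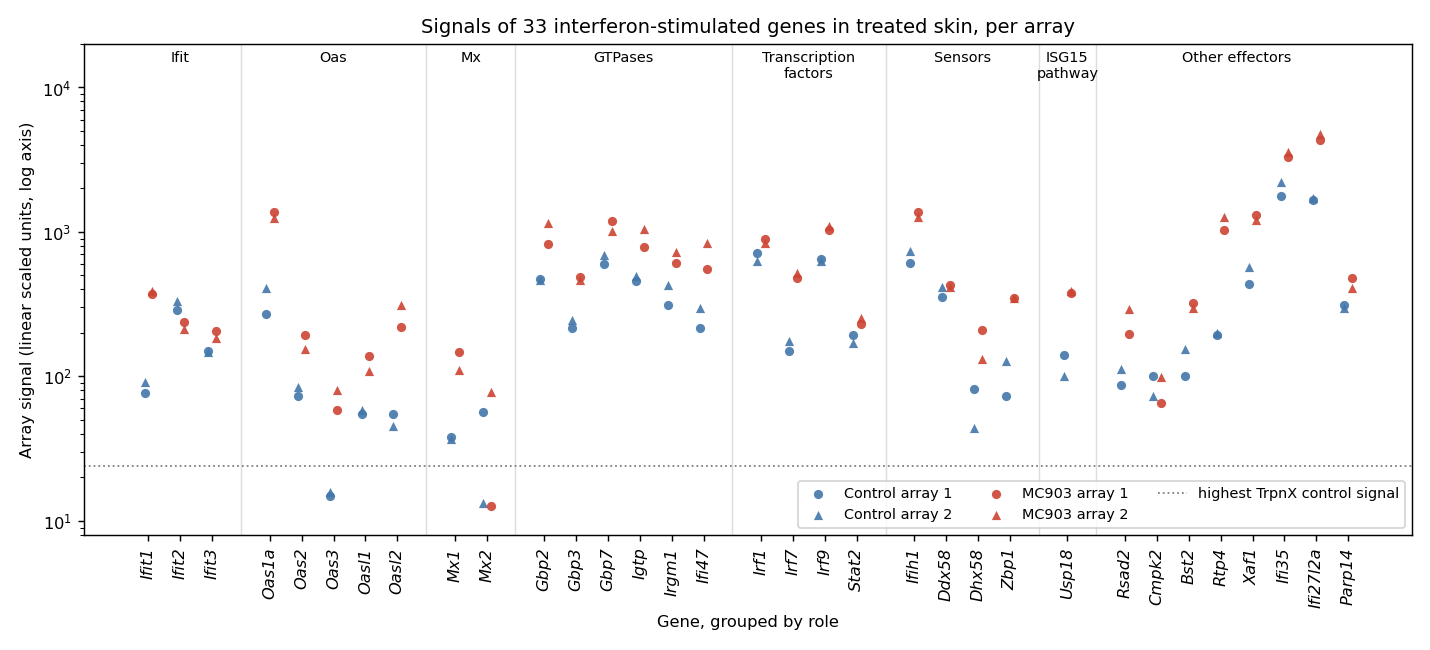
Signals of the 33 measured members on each array (linear scaled units, log axis), grouped by role, with circles and triangles for array 1 and 2 of each group and a dotted line at 24, the highest TrpnX control signal. The MC903 points lie above the Control points in 30 genes, and Ifit2, Cmpk2 and Mx2 are the exceptions.

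Over all 18193 genes, limma with a constant prior variance called 0 members at an adjusted p below 0.05, where it also called 0% of all genes, the smallest adjusted p of a member being 0.0932, for Rtp4. Unadjusted p-values lay below 0.05 for 26 members with positive and 0 with negative differences, against 6.82% of all genes higher and 8.39% lower. With a prior variance that follows the signal in limma, called the signal-dependent prior here, 6 members rose, against 0.539% of all genes, and 0 fell, against 0.385%. These were Rtp4 (adjusted p = 0.0103), Ifi27l2a (adjusted p = 0.0131), Ifit1 and Oas1a (adjusted p = 0.0321 each), Irf7 (adjusted p = 0.0395) and Xaf1 (adjusted p = 0.0422). The 6 calls were lost with either Control replicate left out, and in part without MC903 replicate 1. Such fits leave a single array in 1 group, and without a Control replicate fewer calls were made over all genes too. With the probe sets of each gene averaged the 6 calls became 5 (Ifi27l2a, Ifit1, Irf7, Oas1a and Oasl2), without Rtp4 and Xaf1. Over all genes 67 were then called higher and 44 lower. With 2 arrays on each side, the smallest two-sided p of an exact permutation test is 0.33.

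**Figure D2:**
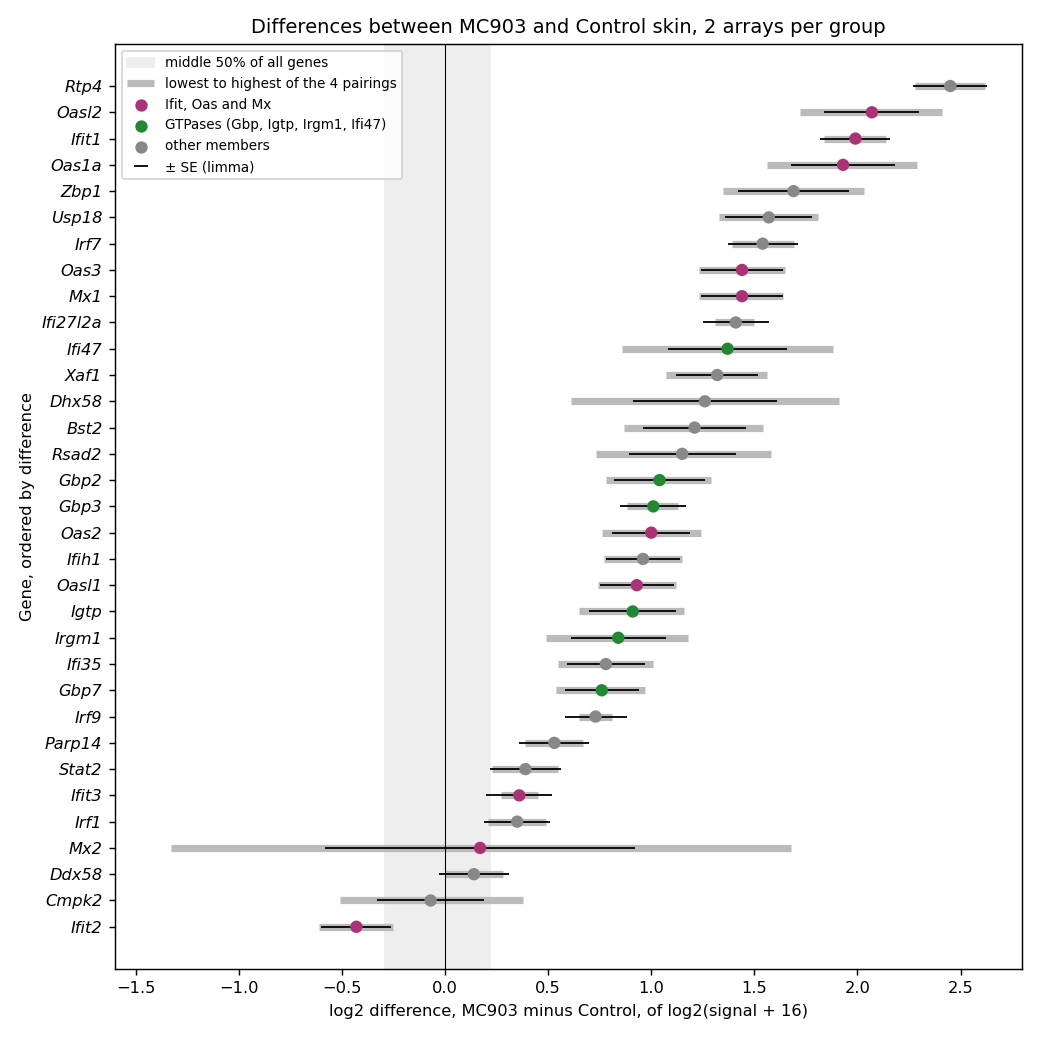
Log2 differences of the 33 members (points, MC903 minus Control, log2 of signal + 16) with limma standard errors (black lines, n = 2 per group) and the range over the 4 pairings of arrays (grey bars), over a band holding the middle 50% of all genes (-0.29 to 0.22). On the probe sets plotted, Rtp4 is at the top with 2.45 and Ifit2 at the bottom with -0.43, and the GTPases lie between 0.76 and 1.37.

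The type I responders of the Ifit, Oas and Mx families, 10 genes, had a median difference of 1.22, and their differences were spread from -0.43 to 2.07. The 3 Ifit genes, whose proteins bind viral RNA and block its translation, did not move alike. Ifit1 stood at 76.5 and 91.8 in Control and at 369.6 and 392.9 in MC903, a difference of 1.99 ± 0.17 (SE, n = 2 per group). Ifit3 stood at 150.5 and 147.5 in Control and at 206.6 and 184.6 in MC903 (0.36 ± 0.16). Ifit2 stood at 287.9 and 333.2 in Control and at 239 and 212.3 in MC903, so both its MC903 signals were the lower ones (-0.43 ± 0.17, limma, adjusted p = 0.351). The 3 genes lie in 1 cluster of the genome.

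The bases before the starts of these genes are shown because ISRE and GAS letters are the ones interferon signalling reads. Whether these letters bear on the differences of the 3 Ifit genes was not tested. The motifs searched were ISRE, as GAAA, any 2 bases and GAAA, and GAS, as TTC, any 3 bases and GAA, on both strands, in windows from 250 bases before to 50 after each RefSeq start (GRCm38.p6). Matches may overlap each other. Capitals mark the matches, and an ISRE match on the opposite strand reads TTTC, any 2 bases and TTTC.
Ifit1 (GRCm38.p6, chr19:34640769-34640888, plus strand): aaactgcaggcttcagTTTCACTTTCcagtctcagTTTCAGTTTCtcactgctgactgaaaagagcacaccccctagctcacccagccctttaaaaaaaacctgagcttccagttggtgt
Ifit3 (GRCm38.p6, chr19:34583363-34583482, plus strand): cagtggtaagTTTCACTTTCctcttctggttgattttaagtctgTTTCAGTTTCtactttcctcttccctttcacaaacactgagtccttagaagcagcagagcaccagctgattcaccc
Ifit2 (GRCm38.p6, chr19:34550574-34550693, plus strand): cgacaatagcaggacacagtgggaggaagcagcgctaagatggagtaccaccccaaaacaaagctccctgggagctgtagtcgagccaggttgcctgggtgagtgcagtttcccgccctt
Oas1a (GRCm38.p6, chr5:120907526-120907645, minus strand): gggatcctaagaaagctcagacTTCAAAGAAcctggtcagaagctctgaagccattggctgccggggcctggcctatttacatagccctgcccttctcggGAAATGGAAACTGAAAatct
The stretches of Ifit1, Ifit2 and Oas1a end at the base before the start, and that of Ifit3 ends 47 bases before it. Ifit1 and Ifit3 each had 2 ISRE matches, with the same letters in the same order (TTTCACTTTC, then TTTCAGTTTC), beginning 104 and 85 bases before the start of Ifit1 and 156 and 122 before that of Ifit3. Neither of the 2 Ifit2 windows had one, and a GAS match lay 241 bases before 1 of its starts, outside the stretch shown. Oas1a had 2 overlapping ISRE matches, 20 and 14 bases before the start. Of all 32851 windows, 3.44% held an ISRE match and 8.3% a GAS match. A match is a run of letters, not a binding site.

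The Oas family senses double-stranded RNA and makes the oligoadenylates that switch on RNase L, apart from the Oas-like protein Oasl1, which has no such activity. All 5 measured genes had MC903 signals above both Control signals. Oas1a stood at 269.5 and 410.5 in Control and at 1384 and 1241 in MC903 (1.93 ± 0.25). Oasl2 stood at 55.1 and 45.2 in Control and at 218.5 and 310.2 in MC903, the largest difference of the family (2.07 ± 0.23, limma with the signal-dependent prior, adjusted p = 0.0504). Oas3 stood at 14.8 and 15.8 in Control, within the TrpnX range, and at 58.6 and 80.6 in MC903 (1.44 ± 0.20), so its size depends on the constant of 16. Oas2 stood at 73.3 and 84.6 in Control and at 194.1 and 154.2 in MC903 (1.0 ± 0.19). Oasl1 stood at 54.6 and 58.4 in Control and at 138 and 108.3 in MC903 (0.93 ± 0.18). Because Oas paralogues resemble one another, some of this signal may belong to relatives. Oas1b, a paralogue outside the members, went the other way, from 49.8 and 103.6 in Control to 21.5 and 33.4 in MC903 (-1.04 ± 0.36, limma with the signal-dependent prior, adjusted p = 0.271), and was singled out after its values had been seen.

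The Mx proteins are dynamin-like GTPases that block viruses, and most inbred strains carry defective Mx alleles. Mx1 stood at 37.9 and 36.9 in Control and at 148.8 and 110.5 in MC903 (1.44 ± 0.20). Mx2 stood at 56.3 and 13.4 in Control and at 12.7 and 78.4 in MC903, with 1 array of each group inside the TrpnX range. The groups of Mx2 overlapped, and its difference of 0.17 ± 0.75 became -0.47 without Control replicate 2 and -0.68 without MC903 replicate 2.

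The GTPases of the interferon-gamma response were the most even group. The guanylate-binding proteins Gbp2, Gbp3 and Gbp7 and the immunity-related GTPases Igtp, Irgm1 and Ifi47 coat and rupture the vacuoles of intracellular microbes or regulate that process. All 6 had MC903 signals above both Control signals, with differences from 0.76 to 1.37 and a median of 0.96. None was at least 2-fold apart in all 4 pairings, and none was called by limma with either prior (smallest adjusted p = 0.175 with the constant and 0.0884 with the signal-dependent prior), while 6 of 6 lay below an unadjusted p of 0.05 with the constant one.

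Ifi47 stood at 216.7 and 299 in Control and at 557.6 and 841.7 in MC903, a difference of 1.37 ± 0.29. Gbp2 stood at 475.6 and 463.7 in Control and at 829.1 and 1158 in MC903 (1.04 ± 0.22), and its other probe set, with a suffix for possible cross-hybridisation, differed by 1.07. Gbp3 stood at 215.1 and 243.9 in Control and at 490.2 and 463.7 in MC903 (1.01 ± 0.16). In each of these the lower MC903 signal lay well above the higher Control signal. Igtp stood at 457.3 and 494.3 in Control and at 783.2 and 1045 in MC903 (0.91 ± 0.21). Irgm1 stood at 310.3 and 431 in Control and at 612.7 and 724.4 in MC903 (0.84 ± 0.23). Gbp7 stood at 595.6 and 697.5 in Control and at 1185 and 1023 in MC903 (0.76 ± 0.18), and its other probe set differed by 1.03. In 4 of the 6, Gbp2, Igtp, Irgm1 and Ifi47, MC903 array 2 was the higher of the MC903 arrays.

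The stretches before 4 GTPase genes are shown because they hold ISRE matches, as in the type I responders, and in Gbp7 and Igtp GAS matches as well.
Gbp2 (GRCm38.p6, chr3:142620543-142620662, plus strand): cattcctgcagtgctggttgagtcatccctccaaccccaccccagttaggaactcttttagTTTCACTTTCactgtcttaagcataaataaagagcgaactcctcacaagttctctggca
Gbp7 (GRCm38.p6, chr3:142530216-142530335, plus strand): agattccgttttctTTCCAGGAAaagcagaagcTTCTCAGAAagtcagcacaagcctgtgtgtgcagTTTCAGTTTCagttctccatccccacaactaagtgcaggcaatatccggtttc
Igtp (GRCm38.p6, chr11:58199436-58199555, plus strand): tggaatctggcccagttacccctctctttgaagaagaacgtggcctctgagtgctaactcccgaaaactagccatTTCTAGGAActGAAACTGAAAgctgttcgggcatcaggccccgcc
Irgm1 (GRCm38.p6, chr11:48871421-48871540, minus strand): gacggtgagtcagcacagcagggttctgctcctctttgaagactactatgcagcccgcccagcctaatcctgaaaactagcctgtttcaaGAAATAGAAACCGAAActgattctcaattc
Each ends at the base before the start. Of the 6 GTPases, all of them in the promoter table, 5 had an ISRE match (all but Ifi47) and 2 a GAS match. Of the 7 type I responders in the table, 4 had an ISRE match (Ifit1, Ifit3, Oas1a and Oas3) and 2 a GAS match (Ifit2 and Oas1a). In Igtp the GAS match began 45 bases and the ISRE match 34 bases before the start. Over the 26 of 35 members in the table, 15 had an ISRE match (Isg15, not measured here, among them) against 3.99% of all 27025 genes. A GAS match was found in 7, against 9.55%, and 8 had neither. The ISRE letters were thus found before genes of both groups.

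Set side by side, the type I responders had the higher median difference (1.22 against 0.96), the wider spread and the lower median signal (142 against 607). The gap between the median differences, 0.26, was not the same in every pairing of arrays. It was 0.30 for MC903 array 1 against Control array 1, 0.37 for MC903 array 1 against Control array 2, -0.09 for MC903 array 2 against Control array 1 and 0.44 for MC903 array 2 against Control array 2. With a constant of 64 in place of 16 it was -0.12, the only alternative run that turned it. It was 0.45 with a constant of 1, 0.10 to 0.37 with 1 array left out, and 0.97 without the 50% dimmest genes, where Oas1a alone was left of the 10 type I responders. Because 1 pairing and 1 constant turned it, no order of the 2 groups is given, and genes are not replicates with which to test it.

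**Figure D3:**
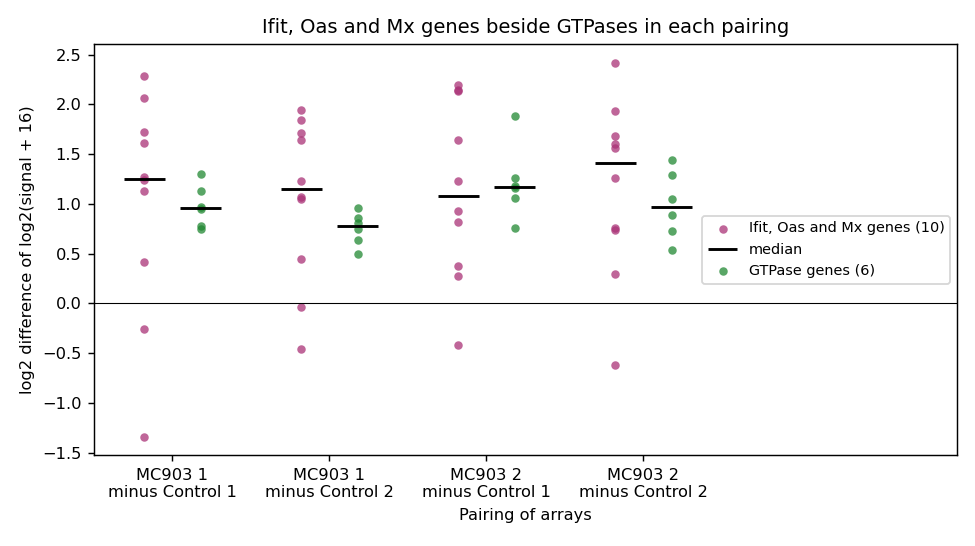
Log2 differences (log2 of signal + 16) of the 10 Ifit, Oas and Mx genes and of the 6 GTPases in each pairing of an MC903 with a Control array, with black bars for the medians. The Ifit, Oas and Mx points are scattered widely and the GTPase points lie close together, and in the pairing of MC903 array 2 with Control array 1 the order of the medians is turned.

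Among the transcription factors of the pathway Irf7 lay above the members' median of 1.01, and the other 3 lay below it. Irf7, which amplifies type I interferon production, rose with the signal-dependent prior, from 150.8 and 174.6 in Control to 481.9 and 522.5 in MC903 (1.54 ± 0.17). Irf9, the DNA-binding part of the ISRE complex, stood at 652 and 625.6 in Control and at 1032 and 1107 in MC903 (0.73 ± 0.15). Stat2, its partner, stood at 194.6 and 169.4 in Control and at 230.3 and 254.5 in MC903 (0.39 ± 0.17). Irf1, a factor induced by interferon gamma, stood at 719.1 and 633.5 in Control and at 893.2 and 833.3 in MC903 (0.35 ± 0.16). In all 4 the groups did not overlap. The promoter of Irf1 is shown for its GAS match, 90 bases before the start, with no ISRE match in the window.
Irf1 (GRCm38.p6, chr11:53769894-53770013, plus strand): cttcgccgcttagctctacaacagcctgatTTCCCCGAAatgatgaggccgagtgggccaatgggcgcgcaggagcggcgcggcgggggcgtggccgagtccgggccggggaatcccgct

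Sensors of foreign nucleic acid differed unequally. Zbp1, which binds Z-form nucleic acid and can start cell death, stood at 73.5 and 127.1 in Control and at 350.3 and 348.8 in MC903 (1.69 ± 0.27), and its other probe set differed by 1.66. Dhx58 (LGP2), a regulator of the RNA helicase sensors, stood at 81.7 and 44.3 in Control and at 210.5 and 132.9 in MC903 (1.26 ± 0.35). Ifih1 (MDA5), a sensor of long double-stranded RNA, stood at 609.9 and 734.4 in Control and at 1376 and 1267 in MC903 (0.96 ± 0.18). Ddx58 (RIG-I), which recognises RNA ends, stood at 352.4 and 414.3 in Control and at 432.1 and 414.4 in MC903, so its groups all but touched (0.14 ± 0.17, limma, adjusted p = 0.725).

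Usp18, which removes the ubiquitin-like protein ISG15 from its targets and damps the type I receptor, stood at 140 and 100.3 in Control and at 376.6 and 390.7 in MC903 (1.57 ± 0.21). Among the remaining 8 effectors, 7 had MC903 signals above both Control signals, with differences from 0.53 to 2.45. Rtp4, a chaperone of receptors, stood at 192.8 and 199.9 in Control and at 1034.5 and 1267 in MC903 (2.45 ± 0.18). Its other, dimmer probe set differed by 0.51, and averaged over both the difference was 1.48, below those of Oasl2 (2.07) and Ifit1 (1.99). Xaf1, a promoter of apoptosis, stood at 434.8 and 568.5 in Control and at 1315 and 1213 in MC903 (1.32 ± 0.20), while its other, dimmer probe set differed by 0.50 (0.91 averaged over both). Ifi27l2a, a small hydrophobic protein, stood at 1673 and 1729 in Control and at 4321 and 4764 in MC903, with little spread inside either group (1.41 ± 0.16). Parp14, an ADP-ribosyltransferase, stood at 311.4 and 297.6 in Control and at 482.8 and 411.7 in MC903 (0.53 ± 0.17).

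Bst2 (tetherin), which holds budding virus at the cell surface, stood at 100.03 and 156 in Control and at 320.9 and 299.2 in MC903 (1.21 ± 0.25). Rsad2 (viperin), which makes a chain-terminating nucleotide, stood at 87.1 and 111.7 in Control and at 195.5 and 292.6 in MC903 (1.15 ± 0.26), and its other probe sets differed by 0.94 and 0.74. Cmpk2, a nucleotide kinase encoded next to Rsad2, stood at 100.1 and 73 in Control and at 65.8 and 99.4 in MC903, so its groups overlapped (-0.07 ± 0.26), and its other probe set differed by 0.52. Ifi35, a binding partner of Nmi, stood at 1785 and 2229 in Control and at 3280 and 3601 in MC903 (0.78 ± 0.19) on a probe set with a suffix for possible cross-hybridisation, while its other probe sets differed by 0.71 and 0.69. Among 16 other probe sets of 12 members, 3 went against the one used (1 each of Cmpk2, Ddx58 and Parp14).

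Transcripts of the measured interferons were at or near background. Of 15 listed, 9 were measured, and Ifna12, Ifna13, Ifne, Ifnk, Ifnl2 and Ifnl3 were not. Each of the 9 was within the TrpnX range on at least 1 array. Of them 3 (Ifna4, Ifna9 and Ifna11) were within it on all 4, and none was called. Ifng stood at 2.72 and 24.3 in Control and at 9.01 and 44.3 in MC903, and Ifnb1 at 15.6 and 31.2 in Control and at 31.3 and 58.9 in MC903. The largest differences of the list were those of Ifna2 (0.87 ± 0.49) and Ifna1 (-0.80 ± 0.53). Whether a measured interferon transcript differed was not detectable at these signals.

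Receptor transcripts were measured for 6 genes, with 0 called by limma with either prior. With the constant one 2 were higher at an unadjusted p below 0.05, against 6.82% of all genes. Ifngr2, the signalling chain of the interferon-gamma receptor, stood at 608.5 and 492.8 in Control and at 1104 and 1089 in MC903 (0.98 ± 0.18, limma with the signal-dependent prior, adjusted p = 0.0659), and its ligand-binding partner Ifngr1 differed by 0.24 ± 0.17. Ifnar1, a chain of the type I receptor, differed by 0.13 ± 0.21, and Il10rb, shared with the lambda receptor, by 0.47 ± 0.16. Of 12 kinase, STAT and regulator genes 0 were called with either prior and 4 were higher at an unadjusted p below 0.05, against the same 6.82%. Socs3, a feedback inhibitor of cytokine receptors, stood at 479.3 and 719.3 in Control and at 2374 and 1342 in MC903 (1.58 ± 0.37), Socs1 differed by 0.88 ± 0.25 and Jak2 by 0.82 ± 0.36.

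**Figure D4:**
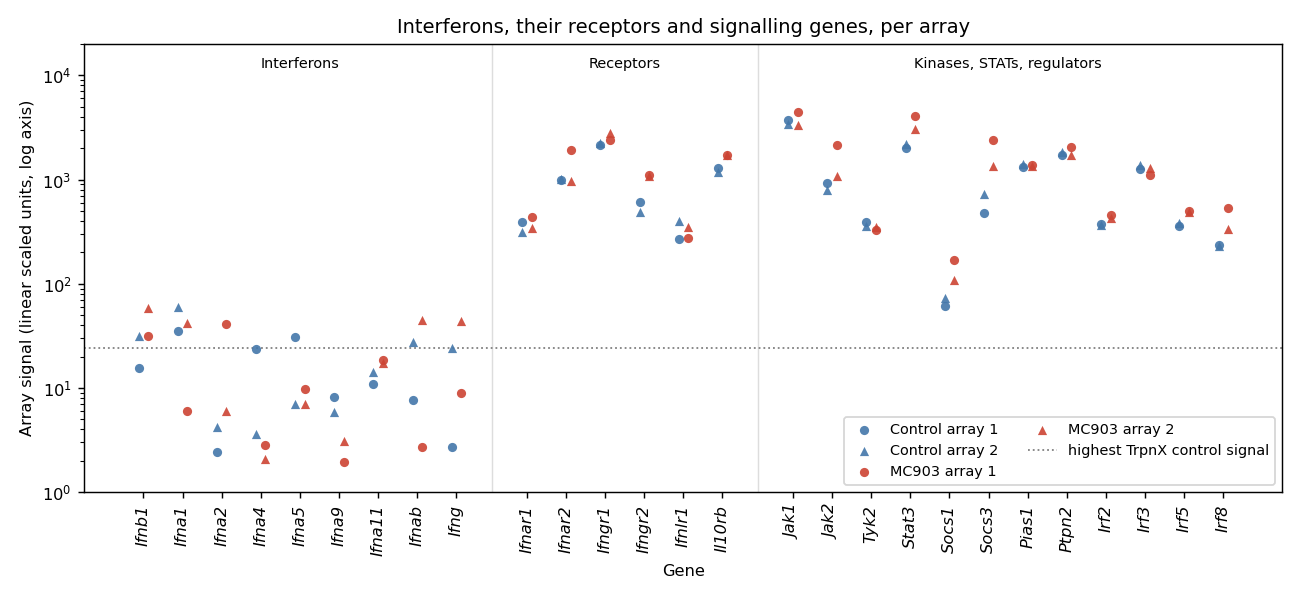
Signals of interferon, receptor and signalling genes on each array (linear scaled units, log axis), with a dotted line at 24, the highest TrpnX control signal. The interferon transcripts scatter around the dotted line, and all receptor and signalling genes lie above it.

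Genes that lead to interferon production numbered 12 measured, with 0 called by either prior. At an unadjusted p below 0.05 with the constant prior 4 were higher, against 6.82% of all genes. Sting1, an adaptor of DNA sensing, differed by 1.16 ± 0.36. Tlr9, a receptor for DNA, stood at 8.39 and 27.6 in Control and at 43.3 and 60.9 in MC903 (1.05 ± 0.35), with 1 Control array within the TrpnX range, so its size depends on the constant of 16. Of 33 other interferon-stimulated genes outside the members, 29 had differences above 0 (45.7% of all genes), and the median was 0.48. In 24 both MC903 signals lay above both Control signals (21.6% of all genes). The constant prior called 0 of them. At an unadjusted p below 0.05 with that prior, 15 were higher and 1 lower (6.82% and 8.39% of all genes). The signal-dependent prior called 2 higher (0.539% of all genes), Samhd1 and Parp9, the latter named after its values had been seen. Samhd1, a nucleotide hydrolase that starves viruses, stood at 597.4 and 713.1 in Control and at 2726 and 2063 in MC903 (1.84 ± 0.22, adjusted p = 0.0219), and Parp9 differed by 1.14 ± 0.17 (adjusted p = 0.0357). Ifitm1, which restricts viral entry, stood at 702.3 and 688.5 in Control and at 5275 and 1116 in MC903, a difference of 1.78 ± 0.77 that came largely from MC903 array 1. Of a short list of further GTPases, 5 measured with Ifi27 (no GTPase) among them, Iigp1 differed by 1.29 ± 0.48 and Irgm2 by 1.03 ± 0.35, and 0 were called by either prior, with 1 below an unadjusted p of 0.05.

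Markers of several leukocyte types also had higher summed signals in the MC903 arrays, and in whole skin more cells of a type and more RNA per cell cannot be told apart. T cell markers (7 of 10 measured) summed to 2343 to 2430 in Control and 2795 to 3708 in MC903, NK cell markers (6 of 7) to 206.5 to 301.3 and 561.9 to 1054, and dendritic cell markers (7 of 8) to 7847 to 8426 and 11770.4 to 12246. Thy1, with overlapping groups, carried most of the T cell sum (1538 and 1575 in Control, 2278 and 1449 in MC903). H2-Ab1 carried most of the dendritic cell sum, while Flt3 (-0.49) and Cd207 (-0.33) had differences below 0. Gzmb was the largest part of the NK cell sum in MC903 (713.6 and 220.4). MC903 signals lay above both Control signals in 4 of 7 T cell, 4 of 6 NK cell and 4 of 7 dendritic cell markers (21.6% of all genes). The same held for 8 of 8 macrophage markers (median difference 0.98) and 5 of 5 neutrophil markers. In 8 of 8 hair follicle markers both MC903 signals lay below both Control signals (28.2% of all genes). Macrophage markers (8 of 8) summed to 21615 to 22403 in Control and 30377 to 47020.2 in MC903, and neutrophil markers (5 of 7) to 896.1 to 1381 and 10364 to 64659. Most of the neutrophil sum came from S100a8 and S100a9, which inflamed keratinocytes also make, and the other 3 genes summed to 183.4 to 220.9 in Control and 391.1 to 1235 in MC903. Plasmacytoid dendritic cell markers (6 of 6, Bst2 being also a member) went both ways, 3 with differences above 0 and 3 below (median 0.07). Their sum of 5926 to 6936 in Control and 4164 to 5458 in MC903 was carried by Tcf4 (-0.62) and Cox6a2 (-0.67). The other 4 summed to 640.3 to 650.8 in Control and 924.1 to 1080 in MC903. Of these 4, Bst2 (1.21) and Ccr9 (0.53) had MC903 signals above both Control signals, while Siglech (-0.02) and Klk1 (0.17) had overlapping groups. Among these lists, Cd4, Klra8 and Eomes were within the TrpnX range on 2 or more arrays. Hair follicle markers (8 of 8) summed to 14289 to 26805 in Control and 7185 to 7296 in MC903, and skeletal muscle markers (6 of 6) to 29913 to 48979 and 9582 to 38120.

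From MC903 array 1 to array 2 the median difference was -1.73 for the neutrophil list, -0.95 for macrophages, -0.42 for T cells, -0.36 for NK cells, -0.02 for dendritic cells, 0.56 for plasmacytoid dendritic cells and 1.73 for muscle. For the 33 members it was 0.05, with 17 of them higher on array 2. Single members went both ways, among them Mx2 by 1.72, Ifi47 by 0.58, Rsad2 by 0.55 and Dhx58 by -0.61. The 6 GTPases differed by a median of 0.32, and the 5 genes of the short list of further GTPases by 0.87, 5 of 5 higher on array 2. The part of other cell types in the members' differences was not tested.

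**Figure D5:**
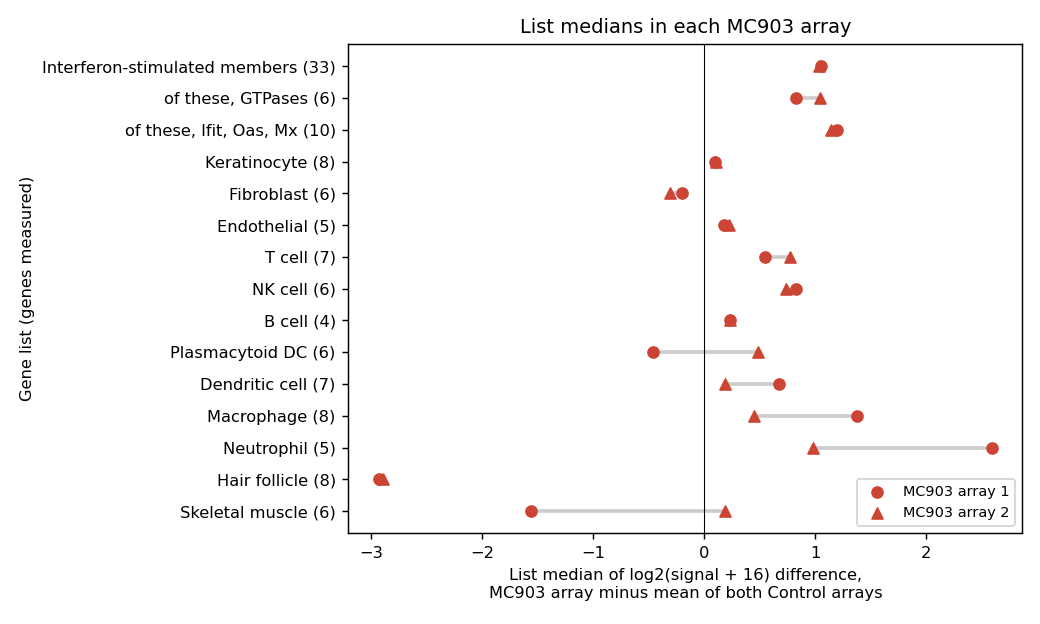
Median log2 difference (log2 of signal + 16) of each gene list on MC903 array 1 (circle) and array 2 (triangle) against the mean of both Control arrays, with the number of genes measured. The 33 members sit at 1.05 and 1.03, the NK cell list at 0.83 and 0.74, the T cell list at 0.55 and 0.77, the macrophage list at 1.38 and 0.45, the neutrophil list at 2.59 and 0.98 and the muscle list at -1.56 and 0.19.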

How the data were processed

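The deposited table holds array intensity values of 45101 probe sets on 4 arrays, made by the authors from 200 ng of RNA per sample, per the labels' protocols. The values are linear and scaled, as tested on them, and carry no detection calls. Which software made them is not stated in the labels.

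Names came from the array platform's annotation, updated through Entrez ID to the RefSeq genes of GRCm38.p6. Those with several symbols (932), none listed (9160) or array controls (64) were left out, and each gene took the probe set with the highest mean log2 value. Groups, Control and MC903, come from the labels. log2(signal + 16) was fitted over all 18193 genes with limma 3.58.1 in R 4.3.3 (lmFit, eBayes, Benjamini-Hochberg, threshold 0.05), and the fit was tested on simulated data. Residual degrees of freedom were 2, and the prior, estimated over all genes, added 2.32 (constant) or 3.72 (signal-dependent). SEs and p-values thus rest in part on the spread of other genes. Members and lists were chosen with earlier results of these data known. All members are described. Of other lists, the 2 largest differences, Ifng, Ifnb1, Ifngr1, Ifnar1 and Jak2 are named. Alternatives were normalization, centring, the constant, dim-gene filters, averaged probe sets, priors, the replicate number as a block and omission of single arrays. Promoter sequences are RefSeq's (GRCm38.p6), matched by symbol for 26 of 35 members.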

Additional observations from a re-analysis of the deposited data

How the results depend on the processing

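Directions of 31 members held under every alternative run in which they were measured. These 31 were the members with groups apart. For them, leaving out an array, another constant, a filter, a prior or the block could not turn the direction. Only normalization, centring and averaging or choosing probe sets could have done so. Mx2 turned to -0.47 without Control replicate 2 and -0.68 without MC903 replicate 2 (range with 1 array left out -0.68 to 1.03), and Cmpk2 to 0.02 with centring, 0.23 with averaged probe sets, 0.13 without Control replicate 1 and 0.18 without MC903 replicate 1 (range with 1 array left out -0.31 to 0.18). The constant-prior count of called members, 0, became 4 with a constant of 64, 2 without the 25% dimmest genes, 6 without the 50% dimmest (17 members left, all 17 of them with groups apart) and 6 with the signal-dependent prior, all higher, and stayed 0 with each array left out. The signal-dependent count of 6 was 10 without the 25% dimmest genes, 5 with averaged probe sets (Rtp4 and Xaf1 lost, Oasl2 gained), and ranged from 0 to 8 with 1 array left out. Calls over all genes moved too. They rose from 0, higher and lower, in each run that added members to the constant-prior count. With the signal-dependent prior they rose without the 25% dimmest genes and with either MC903 replicate left out. They fell with averaged probe sets and with either Control replicate left out. Without MC903 replicate 1 fewer members but more genes were called. A gain in called members was thus not theirs alone. Following the signal-dependent count, and choosing probe sets by linear mean (0 members called, as before), were added after the data had been seen. The members' median of 1.01 was 0.88 with a constant of 64 and 0.92 to 1.08 with 1 array left out. The type I median of 1.22 was 1.44 and 0.74 with constants of 1 and 64 and 1.93 without the 50% dimmest genes, the value of Oas1a, the only 1 of the 10 left there. For a median, a shift counted as such when it exceeded the SD of the 4 pairings. The 30 members with groups apart stayed so with 1 array left out, as they must, since omission cannot make separated groups overlap. The GTPase median was 0.83 to 1.04 with 1 array left out. With the replicate number as a block 0 members were called by the constant prior and 7 by the signal-dependent one. The latter called 138 genes higher and 90 lower in all. The replicate numbers are not said to pair samples, and deviations of same-numbered arrays correlated at -0.061 over genes. Counts of members at least 2-fold apart in every pairing were 12 to 16 with 1 array left out, which leaves fewer pairings. Dim genes (Oas3, Mx2, Tlr9 and the interferons) limit what these signals can show.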
